A study of Mus musculus with 6 samples.

Results

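Macrophages are phagocytic leukocytes of the aortic wall, where they engulf debris and dying cells, present antigen and secrete chemokines and matrix-degrading enzymes. Many arterial macrophages are seeded before birth and maintain themselves in the adventitia, and such resident cells are known for the mannose receptor Mrc1, the hyaluronan receptor Lyve1 and F13a1, the catalytic subunit of coagulation factor XIII. Other arterial macrophages derive from blood monocytes that enter tissue through the chemokine receptor Ccr2, and many of these carry MHC class II, the molecules that show peptides to helper T cells.

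Aortic macrophages were selected on measured transcripts. Each cell had at least 10 UMIs (unique molecular identifiers, tags that count captured transcripts) of the complement genes C1qa, C1qb and C1qc together per 10000 UMIs. It also had a UMI of at least 2 of the leukocyte genes Ptprc, Ctss, Lyz2, Tyrobp and Fcer1g, and under 5 Myh11 and under 20 Dcn UMIs per 10000, limits on markers of smooth muscle cells and fibroblasts. This rule took 334 of the 24972 cells that passed quality control (QC), which asked for over 1000 but under 5000 genes, over 1500 but under 25000 UMIs and a mitochondrial share below 20%.

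The study asked how the heterozygous Tgfbr1M318R/+ mutation, a model of Loeys-Dietz syndrome (LDS), alters the proximal aorta. The 6 libraries were made, 1 per mouse, from the aortic root to the arch of female mice aged 16 weeks on a 129 background. The labels list 4 control mice, of which 2 are Tgfbr1+/+ and 2 are Tgfbr1+/+; Wnt2CRE; EGFP-L10a, where a Wnt2-driven Cre turns on a reporter in cardiac neural crest (CNC) lineage cells, and 2 LDS mice that are Tgfbr1M318R/+. The tissue was digested with collagenase and elastase, and DyeCycle Violet positive, propidium iodide negative cells were sorted, so recovery from the tissue and the sort bears on every share of cells given here.

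The numbers 1 to 6 at the ends of the barcodes separate the libraries, but no source used here pairs a number with a mouse. Genotypes were therefore not compared, no p-values were computed, and values are shown for single libraries or as lowest, median and highest of 6 libraries, which are not replicates of 1 condition. Between 18218282 and 38105145 UMIs per library lay in QC cells, and between 178844 and 545047 in macrophages. A macrophage held a median of 5560.5 UMIs and 1888.5 genes, against 6523 UMIs in other QC cells. Library medians for macrophages ran from 4864 UMIs in library 4 to 8563 in library 6, and the median mitochondrial share over all macrophages was 1.63%.

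Some cell barcode sequences occurred in more than 1 library: 1612 sequences covered 4674 of the 30716 barcodes, of which 1590 passed QC. Their distribution over libraries was uneven, since 5084 pairs joined members of libraries 1, 3, 4 and 5 or joined libraries 2 and 6, and 36 joined the others. The smaller copy usually held few UMIs, with a median of 4.35% of the larger copy (2.75 to 6.24% from the 5th to the 95th percentile). Among macrophages 13 shared a sequence; for 12 of these all copies failed QC, and no sequence was a macrophage in 2 libraries. Leaving out the 13 cells left 321 macrophages, and the counts of genes, the shares, the correlation and some marker sums are also given without them below.

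Macrophages were a small part of every library. They made up 0.868% of QC cells in library 1 (28 cells, exact binomial 95% interval 0.578 to 1.252), 1.15% in library 2 (33 cells, 0.796 to 1.62), 1.73% in library 3 (87 cells, 1.39 to 2.13), 1.58% in library 4 (101 cells, 1.29 to 1.92), 0.731% in library 5 (41 cells, 0.525 to 0.990) and 2.36% in library 6 (44 cells, 1.72 to 3.16). The intervals cover counting error only. Library 6 lay highest and library 5 lowest, with non-overlapping intervals, and the pooled share was 1.34% (1.29% without shared barcodes). Requiring no UMI of Myh11, Dcn, Lum or Cdh5, markers of smooth muscle cells, fibroblasts and endothelium, left 112 macrophages and a share of 0.449%.

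Few QC cells lay near the C1q threshold. By the gate's own genes, macrophages had a median of 99.5 C1q UMIs per 10000 (10.5 to 415), 328 had all 3 C1q genes and 191 all 5 leukocyte genes. Just inside the C1q threshold, 12 QC cells had 10 to 20 C1q UMIs per 10000, of which 4 met the whole gate; just outside, 14 had 5 to 10, of which 8 had 2 leukocyte genes. Csf1r, the receptor that macrophages need for survival, had a UMI in 50% of the first cells, in 35.7% of the second and in 99.3% of the 148 cells with 50 to 100 C1q UMIs per 10000. Of 367 QC cells above the C1q threshold, 5 were lost at the leukocyte genes, 9 at Myh11 and 19 at Dcn. A further 144 barcodes met the gate but failed QC, with a median of 1266 UMIs.

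Markers that the gate did not use matched the label. Of 10 macrophage markers outside the gate, 9 were higher than in other QC cells in every library, among them Pf4, Csf1r, Cd68, Adgre1, Fcgr1, Cd14, Aif1 and Ms4a7. Csf1r lay between 890 and 1152 CPM (UMIs scaled to a library total of 1000000; median 956) against a median of 1.91 in other cells. Adgre1, the adhesion receptor behind a common macrophage stain, lay between 315 and 414 CPM (median 355). Mertk, a receptor for dying cells, had a median of 35.4 CPM against 16.0 and differed in direction between libraries (log2 ratio -0.54 to 2.10).

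The first question was what distinguishes macrophages from the rest of the aortic cells. UMIs were summed over the macrophages and over all other QC cells of each library. Among 9274 genes with a median of at least 10 CPM in either sum, 890 had a log2 ratio of at least 1 in every library (9.6% of the genes tested) and 1468 one of at most -1 (15.8%). The gate used this contrast, so these counts are a description. A gene could also enter through its level in macrophages alone, and could then hardly be called lower. Counts in the lists below are therefore descriptions too. The median log2 ratio over all genes tested was -0.32 (-0.44 to -0.26 over libraries); with the ratios centred on it the counts were 1085 and 1219, and without shared barcodes 869 and 1524. Allowing no UMI of Myh11, Dcn, Lum or Cdh5 gave 487 higher genes, and testing without a CPM minimum gave 4552 lower ones.

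Matrix-degrading enzymes had the 2 largest median ratios among named genes. Mmp12, macrophage elastase (chr9:7344381-7369499, plus strand, mm10), had 203 to 923 CPM, with a median of 675 against 0.357 in other cells and a median log2 ratio of 11.28 (8.13 to 12.39). Its neighbour Mmp13, a collagenase (chr9:7272514-7283331, plus strand), had 56.9 to 285 CPM, with a median of 193 and a median log2 ratio of 11.22. Library 6 was lowest for Mmp12 and library 3 for Mmp13, yet each library lay far above its other cells. Of 13 matrix proteases and inhibitors tested, beside 9.6% higher and 15.8% lower among all genes, 4 were higher, Mmp12, Mmp13, Plau and its receptor Plaur, which act in plasminogen activation. Another 5 were lower: the gelatinase Mmp2, the elastolytic cathepsin Ctsk and the protease inhibitors Timp1, Timp2 and Timp3. Plau had a median of 189 CPM against 3.13, and Timp3 one of 19.3 against 940.1.

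Chemokines and cytokines were among the most abundant genes. Of 19 listed genes tested, 16 were higher and none lower, against 9.6% higher and 15.8% lower among all genes. The list had a median log2 ratio of 7.93, and the exceptions were Ccl8, Il6 and Il10. Cxcl2, which attracts neutrophils, reached 11071 to 34661 CPM (median 25152) against 65.5 in other cells, and library 2 was lowest and library 5 highest. Ccl4, which attracts monocytes and T cells, had 1587 to 8038 CPM (median 4885), and the related Ccl3 a median of 850.3. The monocyte attractants Ccl2, Ccl7 and Ccl12, ligands of Ccr2, had medians of 2570, 3539 and 1128 CPM.

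The chemokine genes differed in how far other aortic cells shared them. Ccl12 was near absent from other cells (0.468 CPM), while Ccl2, Ccl7 and the neutrophil attractant Cxcl1 had medians of 136, 213 and 666 CPM there. Tnf, an inflammatory cytokine, had 712 to 2514 CPM in macrophages (median 1609). Interleukin genes spread more over libraries: Il1b ran from 235 to 5604 CPM (median 639.9) and Il1a from 9.25 to 712 (median 209). Library 6 was highest for both, with 2150 of its Il1b UMIs in 32 of its 44 cells. In that library neutrophil markers in macrophages (284 CPM) and the share of other leukocytes (2.95%) were also highest. Summed over the list, chemokines and cytokines took 34488, 26361, 59064, 56456, 66329 and 39716 CPM in libraries 1 to 6.

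**Figure D1:**
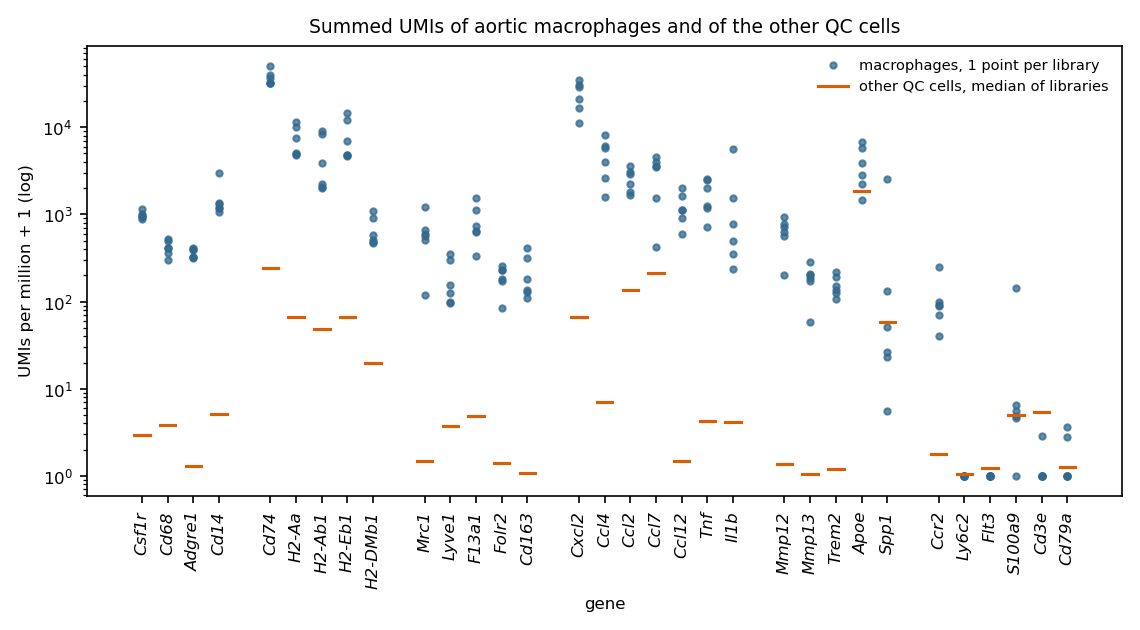
Summed CPM plus 1 on a log axis for single genes; each point is the macrophages of 1 library and each orange bar the median of the other QC cells over 6 libraries. Cd74 lies between 31705 and 50319 CPM in macrophages against a median of 242 in other cells, while Ly6c2 and Flt3 lie at 0 in macrophages of every library.

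Receptors for growth factors, chemokines, antibodies and complement were also higher than in other aortic cells, though not all of them than in other leukocytes. Of 12 chemokine and growth factor receptors, 11 were higher (median log2 ratio 5.91), all except Csf2rb. This list and the Fc and complement list below are read beside 9.6% higher and 15.8% lower among all genes. Cx3cr1, the fractalkine receptor, had 156 to 428 CPM (median 242) against 0.468, and Ccr2 38.9 to 246 (median 88.9). In other leukocytes the receptor list summed to a median of 1556 CPM against 2580 in macrophages, and the medians of Ccr2, the interferon receptor chain Ifngr1 and the chemokine receptor Cxcr4 were higher there, at 134, 857 and 103 CPM. Of 12 Fc and complement genes 10 were higher and 1 lower, with a median of 8.84, while Fcgrt, which recycles antibodies, passed in neither direction. C5ar1, which binds the complement fragment released from C5, had 179 to 837 CPM (median 641), and C3ar1, its counterpart for C3, 209.9 to 444 (median 286). The IgG receptors Fcgr3 and Fcgr2b had medians of 391 and 388 CPM.

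Pattern recognition receptors were higher for 7 of 11 genes tested (median log2 ratio 8.27), against 9.6% of all genes. Cd14, which hands lipopolysaccharide to toll-like receptors, had 1066 to 3019 CPM (median 1245) against 4.08. The lectins Clec4a1, Clec4a3 and Clec4n, which bind glycans, had medians of 128, 189 and 231 CPM, and the RNA sensor Tlr7 one of 36.5. By contrast the lipopolysaccharide receptor Tlr4, its partner Ly96 and the adaptor Myd88 were not called, at medians of 28.3, 53.4 and 56.7 CPM against 12.6, 17.3 and 36.4. Other named genes with large ratios were Lilra5, an immunoglobulin-like receptor (233 CPM, log2 ratio 11.09), Ms4a7 (528 CPM, 10.51), Fcrls (355 CPM, 9.88), Dpys, an enzyme of pyrimidine breakdown (105 CPM, 9.72), the lipid receptor Trem2 (141 CPM, 9.65) and the signalling adaptor Blnk (118 CPM, 9.63).

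Antigen presentation genes took up a large part of the transcriptome. Cd74, the invariant chain that guides MHC class II (ENSMUSG00000024610), had the highest median of all genes, with 31705 to 50319 CPM (median 34672) and a median log2 ratio of 7.53 (6.18 to 8.09). The class II chains H2-Aa, H2-Ab1 and H2-Eb1 had medians of 6217, 3037 and 5843 CPM, against 65.3, 47.4 and 66.3 in other cells. Together these 4 genes took 5.52, 8.52, 4.42, 4.41, 4.33 and 6.99% of all macrophage UMIs in libraries 1 to 6. Of 8 other antigen presentation genes tested, 7 were higher (median 5.46), against 9.6% of all genes, and Cd80 was not called. These 8 are the listed genes with at least 10 CPM in macrophages. In other cells the whole list summed to a median of 35.3 CPM, so its genes could hardly be called lower. Those higher included the peptide-loading chains H2-DMa and H2-DMb1 (medians 368 and 547 CPM) and the class II transactivator Ciita (42.8 CPM). The costimulatory ligand Cd86 (154 CPM) was also higher than in other cells. Summed, this list had a median of 1197 CPM in macrophages and 1225 in other leukocytes. Macrophages lay above other leukocytes in 3 of 6 libraries for H2-DMa, in 2 for Cd86 and in 4 each for H2-DMb1 and Ciita.

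Resident genes were higher too, though several of them were not private to macrophages. The 3 genes of the resident score were higher in all 6 libraries: Mrc1 (117 to 1216 CPM, median 583; log2 ratio 9.54), F13a1 (334 to 1559, median 689) and Lyve1 (95.1 to 350.4, median 139.7; 5.91). Of 14 other resident genes 8 were higher, against 9.6% of all genes, with a list median of 7.64. The 8 included the folate receptor Folr2 (median 204 CPM) and the haptoglobin-hemoglobin receptor Cd163 (157 CPM). The leukotriene synthase Ltc4s (179.7 CPM) and the chemokine Pf4 (1779 CPM) were also among them. Gas6, Cbr2, Selenop, Igf1, Fcgrt and Cd209f were not called. Gas6, a bridge to dying cells, had a median of 438 CPM against 738 in other cells, and the growth factor Igf1 126 against 233.

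Genes of clearance and breakdown showed a mixed picture, to be read beside the 9.6% higher and 15.8% lower among all genes tested. Of 11 scavenging and efferocytosis genes 3 were higher, the scavenger receptors Msr1 and Stab1 and the phosphatidylserine receptor Timd4, and 2 lower, Lrp1 and Mfge8 (list median 0.57). Timd4 lay above other leukocytes in 3 of 6 libraries (29.9 against 40.0 CPM), Msr1 and Stab1 in 6. Lysosomal genes were higher for 11 of 20 and lower for none (median 1.33), with the proteases Ctsb and Ctsc at 1787 and 1374 CPM. Lipid genes were higher for 5 of 12, Trem2, Lgals3, Abca1, Abcg1 and Plin2, and lower for 2, Gpnmb and Cd9. Lgals3 lay above other leukocytes in 1 of 6 libraries (259 against 525 CPM), Plin2 in 3, Abcg1 in 4, and Trem2 and Abca1 in 6. Apoe, the lipid carrier, had 1460 to 6832 CPM against a median of 1836 elsewhere and was not called. Iron and heme genes were higher for 5 of 9 (median 2.77), including the heme-degrading enzyme Hmox1 (411 CPM) and the ferritin light chain Ftl1 (9229 CPM).

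Ligands and receptors of the TGF-beta pathway, which LDS mutations affect, were read as levels over all libraries. Of 18 genes tested 3 were higher and 4 lower, with a list median of -0.42 against -0.32 for all genes; among all genes tested 9.6% were higher and 15.8% lower, so the counts of this short list are near those shares. Tgfb1 had 194 to 329.9 CPM (median 288) against 66.2, the secreted target Tgfbi a median of 573 against 167, and Nrros, which anchors latent TGF-beta on leukocytes, 163 against 1.62. Other leukocytes had a median of 271 CPM of Tgfb1, and macrophages lay above them in 2 of 6 libraries. Tgfbi and Nrros had medians of 164 and 70.9 CPM in other leukocytes and were higher in macrophages in 6 of 6. The receptors Tgfbr1 and Tgfbr2 had medians of 72.3 and 164 CPM against 54.7 and 77.7 in other cells and were not called. Lower genes were the ligand Tgfb3, the co-receptors Tgfbr3 and Eng, and the inhibitor Smad6. In library 1 the list summed to 2315 CPM against 1722 to 1942 elsewhere; without shared barcodes it summed to 2107.

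Growth factors were tested for 10 genes, beside the same shares over all genes. Of these 3 were higher, Tgfb1, named above, Pdgfb, which acts on mural cells, and the cytokine Osm, and Csf1, the ligand of Csf1r, was lower (list median -0.81). Csf1 had 0 to 11.2 CPM in macrophages against a median of 60.9 in other cells. Vegfa UMIs were found in library 6 alone, 35 UMIs in 7 cells. Over all macrophages 3 UMIs, the most that a count of 0 allows at 95%, are 1.41 CPM.

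Beside 9.6% higher and 15.8% lower among all genes, transcription factors were higher for 7 of 17 tested (median 1.08), among them Spi1, Cebpa, Maf, Irf8, Irf5 and Runx1, which act in myeloid development. Irf8 lay above other leukocytes in 3 of 6 libraries (116 against 140 CPM), Irf5 in 4 and the others named here in 6. Spi1 had 222 to 517 CPM (median 281) against 0.580 in other cells. Lower were Id3 and Gata6, at medians of 276 and 6.64 CPM against 1741 and 147. Of 8 interferon response genes Irf7 and Isg15 were higher (list median 0.77). Among 19 dissociation response genes, which enzymatic digestion can induce, Ier3 alone was called higher, and the list median was 0.50. Summed, the list had a median of 33494 CPM in macrophages (23593 to 43222), 19768 in other cells and 15197 in other leukocytes. Fos, its most abundant gene, had 4360 CPM against 4838 in other cells.

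Cell cycle genes were higher than in other aortic cells for 5 of 7 tested (median 3.87), at low levels and from few cells. Among all genes tested 9.6% were higher. Mki67 and Top2a, used as marks of proliferation, had medians of 34.9 and 67.6 CPM in macrophages. Other leukocytes lay higher, with medians of 40.9 and 376 CPM for these genes. The summed list had a median of 1461 CPM in other leukocytes against 391 in macrophages. After each cell was thinned to 1500 UMIs, Mki67 had a UMI in 4.49% of macrophages (10.2% unthinned) and in none of the cells with Myh11. With no UMI of Myh11, Dcn, Lum or Cdh5 allowed, the median log2 ratios of Mki67, Cdk1 and Cenpa turned to -0.81, -1.08 and -2.27. That setting left 7 to 34 macrophages per library, so these ratios rest on very few UMIs. The summed list still had a median of 214 CPM (57.5 to 323) in them, against 25.7 in the other cells of the main comparison. No phase was assigned.

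Several defining markers of other cell types were at 0, while others were found. Not a single macrophage UMI was found for Ly6c2 and Chil3 (monocyte), Flt3 and Clec9a (dendritic cell), Ly6g (neutrophil), Cd3g, Trac and Nkg7 (T and NK cell), Pax5 (B cell), Tpsb2 and Fcer1a (mast cell), Sox10 (glia) or Hbb-bt (erythroid cell). In 334 cells a count of 0 allows up to 0.898% of cells with a UMI, counting error only. Called higher were Ccr2, the single monocyte marker tested, Batf3 and Siglech of the dendritic cell list, Csf3r of the neutrophil list and Ighm of the B cell list, which had a median of 171 CPM. Smooth muscle cell markers were lower for 6 of 6 tested, fibroblast markers for 8 of 8 and endothelial markers for 2 of 3. The gate limited Myh11 and Dcn. Of the 24638 other cells, 10258 lay at or above the Myh11 limit and a further 13043 at or above the Dcn limit. Lower smooth muscle cell and fibroblast markers were thus favoured by the selection and are no separate sign of identity. Among all genes 9.6% were higher and 15.8% lower.

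Summed marker levels varied over libraries. In libraries 1 to 6 the smooth muscle cell list summed to 3182, 373, 365, 523, 1161 and 373 CPM, with Acta2 most abundant, and the fibroblast list to 732, 435, 268, 488, 606 and 279 CPM, led by Dcn. In library 1, 1 cell held 292 of 311 Tagln and 140 of 181 Acta2 UMIs, and without shared barcodes the sum was 657 CPM. The neutrophil list summed to 11.2, 27.2, 18.4, 25.7, 46.3 and 284 CPM, led by Csf3r; in library 6, 36 of 55 S100a9 UMIs came from 1 cell. The monocyte list summed to 252, 38.9, 89.96, 69.7, 87.9 and 123 CPM, led by Ccr2, and the dendritic cell list to 112, 121, 18.4, 69.7, 55.5 and 88.6 CPM, led by Siglech; without shared barcodes the latter was 171 CPM in library 1, the highest of the 6. The B cell list, led by Ighm, lay between 121 and 208 CPM in the macrophages of all 6 libraries, the endothelial list, led by Egfl7, between 7.82 and 29.4, the T and NK cell list, led by Il7r, between 0 and 20.2, the erythroid list between 0 and 55.5, the glia list between 0 and 11.2 and the mast cell list between 0 and 5.59. Without the macrophages that held UMIs of 2 or more markers of another leukocyte list, 299 remained; 873 genes were then higher and 1501 lower than in other cells, 32 and 141 in the class II split and 146 and 46 in the resident split described below. Of the 37 genes higher in the upper class II set 22 were shared with that run, and of the 150 lower 116.

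A second comparison set macrophages beside other leukocytes, the 142 QC cells with a Ptprc UMI, low Myh11 and Dcn and fewer than 10 C1q UMIs per 10000. Libraries 1 to 6 held 10, 9, 27, 35, 6 and 55 of them, so library 5 rests on few cells, and their median depth was 3753 UMIs. Macrophages outnumbered them in libraries 1 to 5, by 2.8 to 6.83 cells to 1, and in library 6 there were 0.8 macrophages for each.

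Among single genes, some resident and chemokine genes separated macrophages from other leukocytes most. Of the genes higher in macrophages in all 6 libraries, the 10 with the largest median ratios were Pf4, Ccl2, Ccl12, Ccl7, Csf1r, Retnla, Ms4a7, Fcrls, F13a1 and Mrc1. Pf4, Ccl12 and Fcrls had 0 UMIs in other leukocytes, where a count of 0 allows up to 3.87 CPM, against medians of 1779, 1128 and 355 CPM. Mrc1 had 583 CPM against 5.16 pooled, F13a1 689 against 11.6 and Csf1r 956 against 36.1. Retnla, a secreted protein of alternatively activated macrophages, spread most, with log2 ratios between 0.71 and 10.59.

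T cell genes lay at the other end. Cd3e, Cd3g, Trdc, Trbc1, Trbc2, Thy1, Skap1, Lat, Icos and Cxcr6 were lower in macrophages in every library, all at a macrophage median of 0 CPM. Cd3e, a chain of the T cell receptor complex, had 643 CPM pooled in other leukocytes and a UMI in 47.9% of them, against 0.299% of macrophages. Class II genes were shared with other leukocytes: the 4 class II score genes summed to a median of 49717 CPM in macrophages and 26580 in other leukocytes. Other chemokine and cytokine genes varied over libraries: Cxcl2 had a median of 688 CPM in other leukocytes (9422 pooled), with log2 ratios between 0.06 and 13.03 (median 6.46), Il1b had a median of 491 (3562 pooled) and was higher in macrophages in 3 of 6 libraries, and Ccl3 and Tnf reversed in 1 library each (-2.33 and -1.16).

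The spread of MHC class II transcripts within macrophages was wide. Summed Cd74, H2-Aa, H2-Ab1 and H2-Eb1 UMIs per 10000 had library medians of 641, 983, 459, 556, 269 and 822 in libraries 1 to 6. Over all cells 47 macrophages had under 10, 52 had 10 to 100, 54 had 100 to 500 and 181 had 500 or more. Thus 54.2% of macrophages lay in the top range, while 14.1% carried little or none. All 4 genes were found in 242 cells and none in 19, and the genes rose together from cell to cell, with median rank correlations over libraries of 0.91 for Cd74 with H2-Aa and 0.93 for H2-Aa with H2-Eb1.

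Resident transcripts were sparser and differed more between libraries. Summed Mrc1, Lyve1 and F13a1 UMIs per 10000 had library medians of 6.40, 1.08, 4.94, 12.97, 25.2 and 2.43. Library 5 was highest. Libraries 2 and 6, which shared barcode sequences with each other, had the lowest resident medians, the highest class II medians and the deepest macrophages (7182 and 8563 UMIs). Of all macrophages 84 had none, 73 had under 5, 66 had 5 to 20 and 111 had 20 or more; all 3 genes were found in 96 cells. Mrc1 (chr2:14229392-14332057, plus strand), Lyve1 (chr7:110850607-110863239, minus strand) and F13a1 (chr13:36867178-37050244, minus strand) lie on separate chromosomes, and their median correlations were 0.60 for Mrc1 with Lyve1, 0.71 for Mrc1 with F13a1 and 0.73 for Lyve1 with F13a1.

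Resident and class II transcripts ran in opposite directions across cells. The rank correlation of both scores was -0.72, -0.79, -0.64, -0.72, -0.69 and -0.45 in libraries 1 to 6, over 28 to 101 cells that share a library and its depth. After thinning each cell to 1500 UMIs it was -0.70, -0.64, -0.63, -0.70, -0.73 and -0.52, and the median without shared barcodes was -0.70 against -0.71 with them. Depth itself correlated with the class II score between -0.35 and 0.34 and with the resident score between -0.52 and 0.20. Each score is a share of the same UMIs, so a gain in 1 lowers the other slightly by construction.

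Most macrophages fell into 1 of these extremes, with a middle range between them. Of 99 macrophages with under 100 class II UMIs per 10000, 87 (87.9%) had 5 or more resident UMIs and 12 had fewer. Over libraries the 87.9% ran from 60% in library 2 to 100% in library 1. Of macrophages with 100 or more class II UMIs, 145 had under 5 resident UMIs and 90 had 5 or more, so cells with both were common. Library 5 went the other way, with 9 cells under 5 and 18 with 5 or more. These ranges are not cell types: 36 macrophages lay near the class II limit and 60 near the resident limit. Among single genes, F13a1 and Cd74 had a median correlation of -0.66, Mrc1 and Cd74 -0.60 and Lyve1 and Cd74 -0.55, while Lyve1 and Folr2 had 0.73. Ccr2 had weak correlations with Cd74 (median 0.15, -0.17 to 0.35), as did Cx3cr1 (0.09, -0.07 to 0.41), and no finding is read from these.

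**Figure D2:**
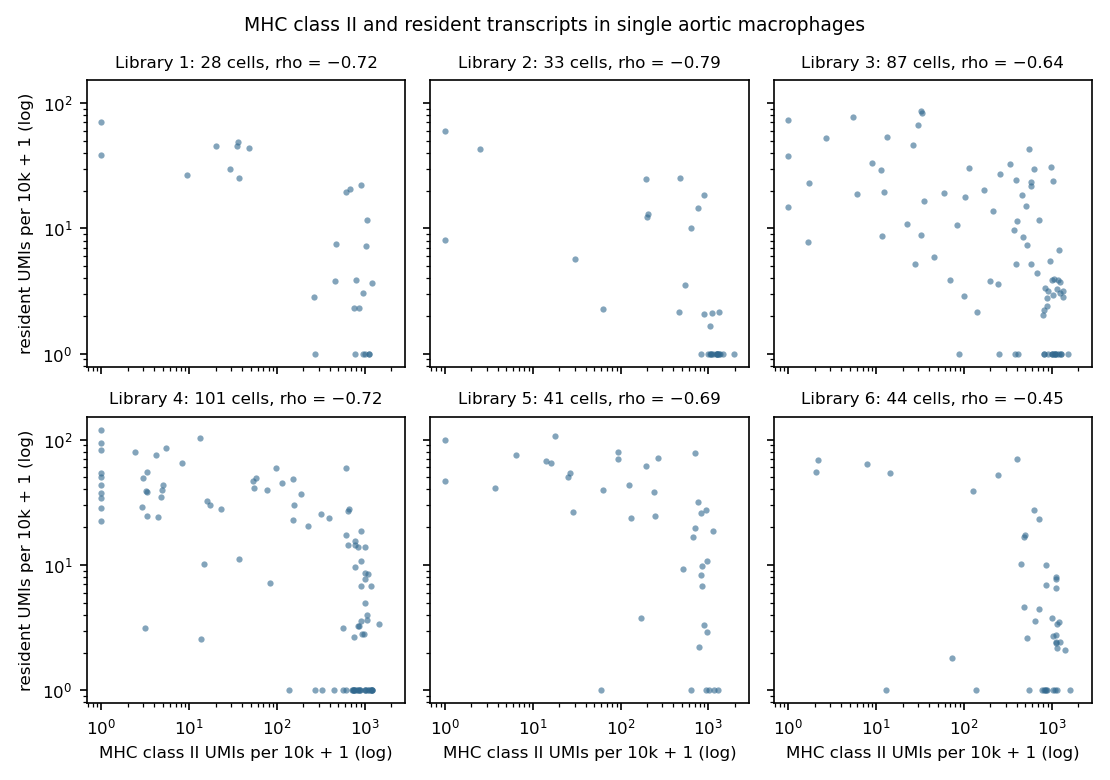
Each point is 1 macrophage of the library named above the panel; the x axis is its MHC class II UMIs (Cd74, H2-Aa, H2-Ab1, H2-Eb1) and the y axis its resident UMIs (Mrc1, Lyve1, F13a1), both per 10000 UMIs plus 1 on log axes. Cells with high values of 1 score tend to have low values of the other, with rank correlations from -0.79 in library 2 to -0.45 in library 6.

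Shares of cells with a UMI were compared at equal depth. At 1500 UMIs per cell, 58.1% of macrophages (exact 95% interval 52.6 to 63.4) had a UMI of Mrc1, Lyve1 or F13a1, from 33.3% in library 2 to 75.6% in library 5 (median 61.3%), and this interval covers the counting error of pooled cells and not the spread between libraries. A class II UMI was found in 88.9% (85.1 to 92.1), from 81.2% in library 4 to 93.2% in library 6. Without thinning the shares were 74.9 and 94.3%, and without shared barcodes 57.3 and 89.1%. Cells with Myh11, which are not known for these genes, served as background: 0.556 and 10.4% thinned and 2.20 and 23.8% unthinned, at a median depth of 7317 UMIs against 5560.5 in macrophages. Both macrophage shares lay above that background in all 6 libraries, the class II background was the higher, and 35.2% of other leukocytes had a thinned class II UMI.

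Single resident genes were each found in fewer cells after thinning. Mrc1 was found in 44.6% of macrophages (0.0487% of cells with Myh11), F13a1 in 42.2% (0.283%) and Lyve1 in 18.9% (0.263%). Ccr2 was found in 10.2% of macrophages and Cx3cr1 in 27.5%, against 0.0195 and 0.0292% of cells with Myh11. Timd4, which marks long-lived resident macrophages in many tissues, was found in 2.69%, or 9 cells. Unthinned shares in macrophages were 70.4% for Mrc1, 54.8% for F13a1, 29.0% for Lyve1, 17.7% for Ccr2, 55.1% for Cx3cr1 and 10.5% for Timd4.

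To describe what travels with class II, the macrophages of each library were split at its median class II score. The upper set held 165 cells and the lower 169, with median scores over libraries of 974 and 55.2 per 10000, and 54 cells lay near the split. Median depth was 5122 UMIs in the upper and 6594.5 in the lower set, and the upper set was the shallower in 4 of 6 libraries. Its median mitochondrial share was the lower in 5 of 6 libraries (1.57 against 2.57% in library 1). Of 1261 genes with a median of at least 100 CPM in macrophages, outside the gate and the score, 37 were higher in the upper set in all 6 libraries with a median log2 ratio of at least 0.5 (2.93% of genes tested) and 150 lower with at most -0.5 (11.9%). The median over all genes tested was -0.16. Centred ratios gave 74 higher and 96 lower, and totals without the 4 score genes 64 and 106. Without shared barcodes the counts were 31 and 138.

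Mmp12, Mmp13 and peptide-loading genes went with class II. Mmp13 had a median of 321 CPM in the upper set against 30.0 in the lower (log2 ratio 3.15, 0.89 to 4.37) and Mmp12 1162 against 204 (2.47, 0.84 to 3.08). Few cells carried Mmp13: in library 1 a single cell of 5 with it held 32 of 51 UMIs, and in library 3 a single cell of 11 held 15 of 31. H2-DMb1 and H2-DMa, which exchange peptides on class II, had log2 ratios of 2.03 and 1.90, with 962 and 604 CPM in the upper set. Other genes higher in the upper set included the phospholipase relative Plbd1 (2.12), the apoptosis regulators Bcl2a1a (1.52) and Pmaip1 (1.26), the surface glycoprotein Cd52 (1.26) and the cytokine inhibitor Socs1 (1.23). Of 3 other antigen presentation genes tested, H2-DMa and H2-DMb1 were higher, and Cd86 had 175 CPM against 137.

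Resident genes were lower where class II was high. The resident score genes Lyve1 (log2 ratio -5.09), F13a1 (-2.38) and Mrc1 (-1.78) were lower in all 6 libraries, and the median resident score over cells was 1.78 per 10000 in the upper and 24.3 in the lower set. All 9 other resident genes tested were lower, with a list median of -2.04 against -0.16 for all genes. Fibroblast markers summed to 341 CPM in the upper set against 570 in the lower, and were higher in the upper set in 2 of 6 libraries. Folr2 had 21.3 CPM in the upper set against 349.7 in the lower (-4.12), Cd163 26.8 against 305 (-2.81), and Cbr2, a carbonyl reductase, 68.1 against 693 (-3.22). The ion transport regulator Fxyd2, Ltc4s, the scavenger receptors Colec12 and Stab1, and Fcrls were the other named genes, with log2 ratios of -3.16, -2.83, -2.69, -2.21 and -2.27.

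Single lists were read beside the 11.9% of all genes tested that were lower in the upper class II set and the 2.93% that were higher. Among 6 scavenging genes tested Cd36, Stab1, Gas6 and the Gas6 relative Pros1 were lower, while Axl, a receptor for Gas6, was higher (229 against 138 CPM). Of 19 lysosomal genes 6 were lower, including Ctsd, Ctsl and Grn, and Ctsh was among those higher. Among 9 Fc and complement genes those lower included Fcgrt, Itgam and Cfp, and of 15 transcription factors Maf, Zeb2 and Mef2a were. Of 15 chemokines Ccl3 and Cxcl16 were higher and Ccl2, Ccl6, Ccl9 and Pf4 lower. Il1b had a median of 1389 CPM in the upper set against 221 but reversed in at least 1 library (log2 ratio -0.47 to 4.53). With no UMI of Myh11, Dcn, Lum or Cdh5 allowed, Ccl2 turned to 0.52 and Cxcl16 to -0.0506; that setting left 2 libraries with 10 cells in each set.

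Several other lists held genes lower in the upper class II set, most of them with few genes tested. The counts below stand beside the 11.9% of all genes tested that were lower and the 2.93% that were higher. Those of 1 in 19 and 1 in 8 lay below or near the first share. Called lower were 1 of 19 dissociation genes (Ier3), 2 of 5 lipid genes (Apoe, Plin2), 2 of 6 iron genes (Cd163, Blvrb), 1 of 3 interferon genes (Ifitm3), 1 of 2 growth factors (Igf1), 1 of 8 macrophage markers (Pf4) and 1 of 5 matrix genes (Timp2). Skil, a repressor of Smad signalling, was the 1 of 5 TGF-beta genes called higher (393 against 305 CPM). None of 7 receptors, 6 pattern recognition genes or 1 cell cycle gene was called. The summed cell cycle list had a median of 201 CPM in the upper set against 549 in the lower, growth factors 549.9 against 737 and lipid genes 4151 against 5138, each lower in 6 of 6 libraries. The dendritic cell list summed to 97.2 CPM in the upper set and 57.2 in the lower and was higher in 6 of 6 libraries, with a median over cells of 0 in both.

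The same split at the resident score gave the converse picture. The upper set held 165 and the lower 169 cells, with library medians of 24.0 and 0.664 resident UMIs per 10000 and 29 cells near the split. Median depth over libraries was 5511.5 and 5999 UMIs, but the upper set was the deeper in 4 of 6 libraries, and library 1 had 3905 against 6931.5. The median mitochondrial share was higher in the upper set in 5 of 6 libraries. Of 1262 genes tested 156 were higher in the upper set (12.4%) and 48 lower (3.8%), against a median of 0.10 for all genes; centred ratios gave 119 and 67, and totals without class II genes 130 and 61. Without shared barcodes the counts were 147 and 51. Without library 3 the genes lower in the upper set numbered 74.

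Folr2, Cd163 and Pf4 marked the upper resident set. Folr2 had a median of 412 CPM against 5.70 (log2 ratio 4.92, 3.46 to 7.38), Cd163 366 against 7.48 (4.64) and Pf4 2829 against 529 (2.51). Other named genes higher there were Cbr2 (4.37), Ltc4s (3.36), Fcrls (3.12), Stab1 (3.10), Fxyd2 (2.83), Colec12 (2.74) and Gas6 (2.51). Of 9 other resident genes 8 were higher, with a list median of 2.51; Igf1 had 199 against 77.0 CPM and reversed in at least 1 library (-0.33 to 5.52). Fibroblast markers summed to 581 CPM in the upper set against 297 and endothelial markers to 23.4 against 7.55, each higher in 5 of 6 libraries, while Gas6 and Igf1 had higher medians in other aortic cells than in macrophages.

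Lists were again read beside the share of all genes called, here 12.4% higher and 3.8% lower in the upper resident set. Of 6 scavenging genes Cd36, Stab1, Gas6 and Pros1 were higher and Axl lower, and of 19 lysosomal genes 7 were higher, including Ctsb, Ctsl and Grn, and Ctsh was among those lower. Csf1r and Ccr1 were higher among 7 receptors, whose median log2 ratio of 0.19 lay near the 0.10 of all genes, and Csf1r had 1128 against 803 CPM. Of 9 Fc and complement genes Fcgrt, Itgam, C5ar1 and Cfp were higher. Of 15 transcription factors Maf, Klf2, Klf4 and Zeb2 were higher; Maf, which acts in macrophage self-renewal and resident programs, had 896 against 172 CPM (log2 ratio 2.25).

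Further lists held few called genes, in several close to the 12.4% of all genes that were higher in the upper resident set: 2 of 6 iron genes (Cd163, Blvrb), 1 of 5 lipid genes (Apoe), 1 of 6 pattern recognition genes (Clec4a1), 1 of 5 TGF-beta genes (Tgfbr2, 193 against 131 CPM), 1 of 3 interferon genes (Ifitm3) and 3 of 8 macrophage markers (Pf4, Csf1r, Adgre1). Neither of 2 growth factors nor the 1 cell cycle gene was called. Among 19 dissociation genes Fosb and Ier3 were higher, and the list summed to 39084 CPM in the upper and 27861 in the lower set, higher in 6 of 6 libraries. What this has to do with the resident genes was not tested.

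Class II genes, Mmp12, Mmp13 and Il1b were lower in the upper resident set. All 4 class II score genes were lower, with a list median of -1.60; H2-Ab1 had 1400.4 against 4409 CPM (-1.64) and H2-Eb1 2930 against 8624 (-1.63). The median class II score over cells was 82.4 per 10000 in the upper and 901 in the lower set. Mmp12 had 62.6 against 1297 CPM (-4.10, -5.97 to -2.89), Mmp13 69.1 against 250.2 (-2.20) and Il1b 199.6 against 1125 (-2.74). Other named genes were the activation marker Cd69 (-2.20), the chemokines Cxcl14 (-2.14) and Ccl3 (-1.84), Glipr1 (-1.85) and Bcl2a1a (-1.63). H2-DMa and H2-DMb1 were lower as well, at -0.78 and -1.03. Of 15 chemokines Ccl3, Cxcl16 and Il1b were lower and Ccl6, Ccl7 and Pf4 higher, beside 3.8 and 12.4% of all genes. With no UMI of Myh11, Dcn, Lum or Cdh5 allowed, Ccl7 turned to -0.21 and Ctsh to 0.0290.

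**Figure D3:**
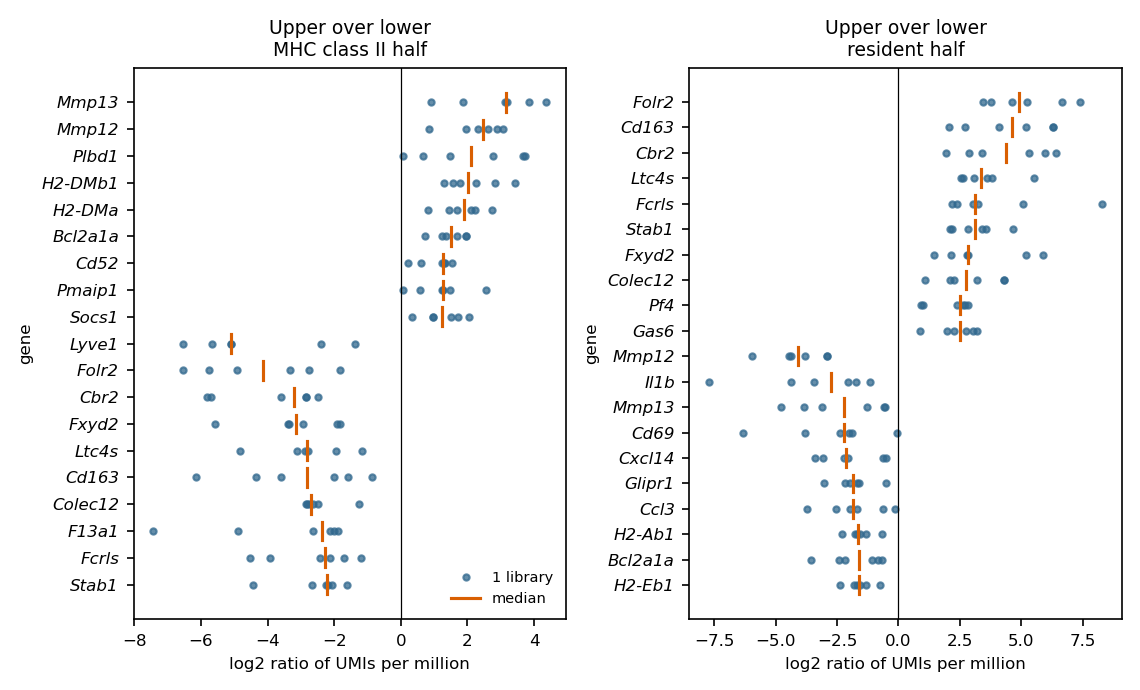
Log2 ratios of CPM between macrophages above and at or below their library's median score, for the MHC class II score (left) and the resident score (right); each point is 1 library and each orange bar the median of 6. Every gene shown has the same sign in all 6 libraries, and the largest medians are 3.15 for Mmp13 and -5.09 for Lyve1 on the left and 4.92 for Folr2 and -4.10 for Mmp12 on the right.

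Class II and chemokine genes were among those whose counts varied most between macrophages. Ranked by variance over mean in thinned cells, Cd74 led with a library median of 38.7, followed by Cxcl2 (37.9), Retnla (35.6), Malat1 (24.98) and Ccl4 (22.2). Retnla came from few cells: it had a UMI in 5.69% of thinned macrophages, and its ratio ran from 0 to 79.1 over libraries. Actb, Lyz2, Ccl7, Cxcl1, Apoe, H2-Eb1, H2-Aa, Ccl2, mt-Co3 and Ccl12 completed the 15 named genes, with ratios from 14.98 down to 6.36. Lyz2 helped to choose the cells and is no finding. Cd74, Malat1, Cxcl2 and Actb were also the genes with the highest median CPM, and the ranking was not adjusted for abundance.

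Since the class II genes moved together, promoters of H2-Aa, H2-Eb1, H2-DMa and H2-DMb1 were searched for GATTGG on both strands. These are the letters of an inverted CCAAT box. No promoter of Cd74 is shown. In the RefSeq promoter table for GRCm38.p6, 14.6% of 32851 windows of 250 bases upstream of a gene start hold these letters. The windows of H2-Aa, H2-Eb1 and H2-DMb1 hold them, with the first letter at -49, -60 and -62 from the start. Of 2 entries for H2-DMa 1 holds them at -199 and the other does not. H2-Ab1 and Ciita are named without a sequence. The 110 bases upstream of the start, 5′ to 3′ on the strand of the gene and with the match on that strand in capitals, are chr17:34287824-34287933 (minus strand) for H2-Aa, chr17:34305757-34305866 (plus) for H2-Eb1 and chr17:34153081-34153190 (plus) for H2-DMb1. The H2-Eb1 stretch also holds 1 match on the opposite strand, left in lower case. A match is a description of these letters and not of a bound site.
H2-Aa: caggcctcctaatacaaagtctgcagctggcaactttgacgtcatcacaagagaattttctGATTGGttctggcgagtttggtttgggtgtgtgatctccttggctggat
H2-Eb1: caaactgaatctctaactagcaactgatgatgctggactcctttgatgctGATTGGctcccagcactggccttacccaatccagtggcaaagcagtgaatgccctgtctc
H2-DMb1: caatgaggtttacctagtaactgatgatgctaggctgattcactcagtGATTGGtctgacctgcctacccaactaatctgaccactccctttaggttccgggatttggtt

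With 28 to 101 macrophages per library, single genes rest on few UMIs, and a gene at 0 was not detectable at this depth. The genotype and preparation day of each library are unknown, and samples were prepared on several days, so differences between libraries cannot be assigned to genotype, day or batch.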

How the data were processed

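From the authors came 1 count table of UMIs, 31055 features by 30716 cell barcodes, built on mm10. Their notes give Cell Ranger 6 for it, whereas 4.0.0 stands in its header. Values are whole counts; nothing used here says if aggregation equalized depth between libraries. Cells were filtered with the study's QC limits and macrophages chosen by the rule in the text, with no clustering and no doublet caller; 35 symbols with more than 1 identifier were kept apart. Coordinates came from GENCODE M21 by Ensembl identifier, and 318 of 318 genes matched.

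UMIs were summed per library and divided by the total (CPM). Before log2 ratios were taken, 0.5 UMI in proportion to the depth of each sum was added; medians over libraries are reported, so a ratio need not equal that of the median CPM. Scores are UMIs per 10000, sets were split at each library's median (a library entered with at least 10 cells in each set), and thinning used a fixed seed. Depth gave 1.41 CPM as the level of 3 UMIs over all macrophages and 3.87 CPM over other leukocytes.

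Genes named in the text were taken from the 20 largest median ratios over other cells with at least 100 CPM, the 10 largest and 10 smallest against other leukocytes and in each split, the 15 with the largest variance over mean, and the listed genes, of which 304 were found and Clec7a was not. Genes of the gate were left out of the named genes and the counts in lists. The members and lists were chosen with earlier results of these data known. Alternatives changed the gate, the libraries used, the prior, the scaling, the CPM minimum, the split and the thinning; leaving out shared barcodes and totals without class II genes were chosen after seeing the data. Steps were tested on simulated data. Python 3.11.15, numpy 2.4.6, scipy 1.17.1, pandas 2.3.3 and matplotlib 3.10.9 were used.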

Additional observations from a re-analysis of the deposited data

Results flagged for a closer look

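Among 37 quantities compared over the 6 libraries, 7 had a library far from the others. A chance rate of about 1 in 20 would hold for independent replicates with a normal distribution. These libraries are not replicates of 1 condition, some lists share genes, and single cells can carry a sum. No excess over chance is therefore read from the 7. Other leukocytes made up 2.95% of QC cells in library 6 against 0.107 to 0.547% in the others. In macrophages of library 6 the neutrophil list summed to 284 CPM against 11.2 to 46.3, and to 49.7 without macrophages that held UMIs of 2 or more markers of another leukocyte list. The pattern recognition list summed to 4765 CPM in library 6 against 1932 to 2687, and to 4836 without those cells. The smooth muscle cell list summed to 3182 CPM in library 1 against 365 to 1161, and to 657 without shared barcodes. The TGF-beta pathway list summed to 2315 CPM in library 1 against 1722 to 1942. The erythroid list summed to 55.5 CPM in library 5 against 0 to 20.2, and the lysosome list to 15168 CPM in library 3 against 13403 to 14026.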

How the results depend on the processing

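No paired analysis was possible because no library is paired with a labelled replicate. Allowing no UMI of Myh11, Dcn, Lum or Cdh5 left 112 cells (0.449%) with a median of 4719 UMIs; genes higher than in other cells fell to 487, of which 465 are among the 890. In the class II split it gave 117 higher and 359 lower genes and in the resident split 274 and 195, each over the 2 libraries with 10 cells per set, where fewer libraries must share a sign; the resident share was 50%. The signs of Cdk1 (-1.08), Cenpa (-2.27) and Mki67 (-0.81) over other cells turned. So did those of Ccl2 (0.52) and Cxcl16 (-0.0506) in the class II split and of Ccl7 (-0.21) and Ctsh (0.0290) in the resident split. The cause was not tested. With 7 to 34 macrophages left per library, the cell cycle list still summed to a median of 214 CPM, against 25.7 in the other cells of the main comparison. Leaving out macrophages with other leukocyte markers gave a share of 1.20%.

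CPM minimums set how many genes are tested. With none, 4552 genes were lower than in other cells, 117 were higher and 545 lower in the class II split, and 590 and 156 in the resident split. A minimum lowered by a factor of 2 gave 248 lower (class II) and 255 higher (resident); a minimum raised by it gave 22 and 72, and 83 and 28. In the class II split, centred ratios gave 74 and 96 and totals without class II genes 64 higher; outer tertiles, over 5 libraries, gave 74 lower in the resident split. The cause was not tested. Resident and class II shares were 74.9 and 94.3% unthinned, and 65.2 and 93.1% in the 290 cells with 3000 UMIs.

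Leaving out each library in turn gave macrophage shares of 1.24 to 1.51% (1.51 without library 5), 914 to 974 genes higher and 1521 to 1634 lower than in other cells, 36 to 45 and 161 to 178 in the class II split, 151 to 176 and 46 to 74 in the resident split (74 without library 3), correlations of -0.72 to -0.69, and shares of 55.6 to 60.8% and 87.9 to 92.3% (92.3 without library 4). The correlation had the same sign under all 14 alternatives. Of 540 and 580 repeats for genes named in the class II and resident splits, 533 and 567 moved by less than the spread between libraries; 129 of 2520 moved and 3 reversed over other cells, and 40 of 200 moved against other leukocytes. Depth limits single genes: 3 UMIs are 1.41 CPM over all macrophages.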

Other observations

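The added GFP sequence had 1 UMI in 1 macrophage, and 262, 201, 157, 258, 8 and 6 UMIs in other QC cells of libraries 1 to 6. It was found in 2.55 to 6.66% of other QC cells in libraries 1 to 4, and in 0.126 and 0.330% in libraries 5 and 6. The labels list 2 mice with the reporter, fewer than the libraries with the higher shares, and the reason was not tested. No genotype was read from these values. Sm3_intact had 0 UMIs in macrophages and in other QC cells. Spp1, a secreted phosphoprotein of lipid-laden macrophages, had 970 UMIs in library 6, of which 540 came from 1 of 8 cells with it, and 1 to 72 UMIs in the other libraries. Fabp4, a lipid chaperone, had 57 of 58 UMIs of library 6 in 1 cell and 88 of 104 in 1 cell of library 3. Cd209f, a lectin of resident macrophages, had 99 UMIs in 6 cells of library 6 and none in library 2, and Ccl24, a chemokine for eosinophils, 70 of its UMIs in 18 cells of library 4.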
